A study of Mus musculus with 12 samples.

Results

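RNA-seq levels of 42 genes of the lysosome were followed in bone-marrow-derived macrophages (BMMs) with and without the RNA-binding protein IGF2BP2. The genes were listed by name from what they are known to do, by a rule that uses none of their values, although earlier results of these data were known when the list was made. They were 42 of 38887 genes in the deposited tables. They comprised 16 genes of the vacuolar proton pump (V-ATPase), 10 lysosomal proteases, 6 glycosidases, 3 genes of sphingolipid breakdown, 3 of the lysosomal membrane, the transcription factors Tfeb and Tfe3, and progranulin (Grn) with the autophagy receptor p62 (Sqstm1).

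BMMs were grown from mouse bone marrow with 50 ng/ml M-CSF for 6 days. The 4 groups were WT M0 (untreated), WT M2 (IL-4 at 20 ng/ml, 8 hours), KO M0 and KO M2, with 3 libraries each. KO mice had lost exons 4 and 5 of Igf2bp2, which were floxed, in cells with Cre expressed from the myeloid Lyz2 locus. WT mice were littermates without floxed alleles, with or without that Cre. Each number in the labels stood for 1 mouse of a genotype and occurred once untreated and once with IL-4, so that M0 and M2 libraries of a number were paired.

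V-ATPase pumps protons into the lysosome through the membrane-bound V0 sector, driven by ATP hydrolysis in the cytosolic V1 sector. The low pH activates cathepsins and other acid hydrolases, with which macrophages digest engulfed particles, proteins, glycans and lipids. TFEB and TFE3 are related transcription factors that bind CACGTG-type elements and switch on many lysosomal genes.

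Libraries held from 20011792 counts (in WT M2) to 39632770 counts (in KO M2). All 42 genes passed the filter on low counts. Lyz2, which encodes lysozyme M and carries the Cre insertion, was at 11050 to 15400 TPM (transcripts scaled to a fixed total in each library) in WT M0 and at 33.8 to 50.2 TPM in KO M0. In M2 it was at 6126 to 7725 TPM in WT and at 15.2 to 21.6 TPM in KO. The loss of Lyz2, itself a lysosomal hydrolase, and the loss of Igf2bp2 cannot be told apart in any WT to KO difference. Whole-gene TPM of Igf2bp2 in M0 was 70.1, 58.3 and 42.1 in WT and 56.1, 48.5 and 53.8 in KO, a value that includes the remaining exons and therefore does not check the deletion. In M2 it was 120.1, 126.8 and 95.9 TPM in WT and 75.4, 72.8 and 71.3 TPM in KO. All 7 macrophage markers were detected, with summed levels in M0 of 1750 to 1990 TPM (WT) and 1890 to 1960 TPM (KO), and in M2 of 2930 to 3030 TPM (WT) and 2550 to 2900 TPM (KO). Summed neutrophil markers were low (8 genes, with Ly6g at 0) and in M0 reached 23.8 to 61.2 TPM (WT) and 17.8 to 19.2 TPM (KO), and in M2 14.2 to 36.1 TPM (WT) and 13.7 to 19.1 TPM (KO). Summed stromal markers (6 genes) in M0 were at 11.1 to 21.8 TPM (WT) and 3.53 to 12.9 TPM (KO), and in M2 at 12.5 to 22.9 TPM (WT) and 3.25 to 10.9 TPM (KO). Markers of B and T cells, mast cells and erythroid cells each summed to under 1 TPM, and those of dendritic cells to 0.18 to 0.53 TPM in M0 and 0.85 to 1.12 TPM in M2. The part of these levels in the results was not tested. In bulk RNA, fewer cells of a type and less RNA per cell cannot be told apart.

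The 42 genes made up 3.43% ± 0.161 (SD, n = 3) of all TPM in M0 and 3.47% ± 0.0942 in M2 of WT mice. In KO mice they made up 3.604% ± 0.0412 and 3.602% ± 0.0414. The share ran from 3.27% to 3.65% over the 12 libraries, and the ranges of the groups overlapped. In WT M0, 9 members had a mean of at least 1000 TPM, 26 lay between 100 and 1000 TPM, and 7 between 10 and 100 TPM. Ctsd (cathepsin D, an aspartic protease) led with 7159 ± 505 TPM. Ctsb (4159 ± 409 TPM) and Ctsl (4095 ± 181 TPM), both cysteine cathepsins, followed, and their libraries overlapped. Psap, the precursor of the saposins that present sphingolipids to their hydrolases, had 2954 ± 93.6 TPM. Grn (1715 ± 72.1 TPM) and the cysteine cathepsin Ctss (1681 ± 89.0 TPM) were next and overlapped. The lowest members were Gaa (acid alpha-glucosidase, 35.4 TPM), Atp6v0a2 (32.4 TPM), Tfeb (28.5 TPM) and Smpd1 (acid sphingomyelinase, 20.9 TPM).

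**Figure D1:**
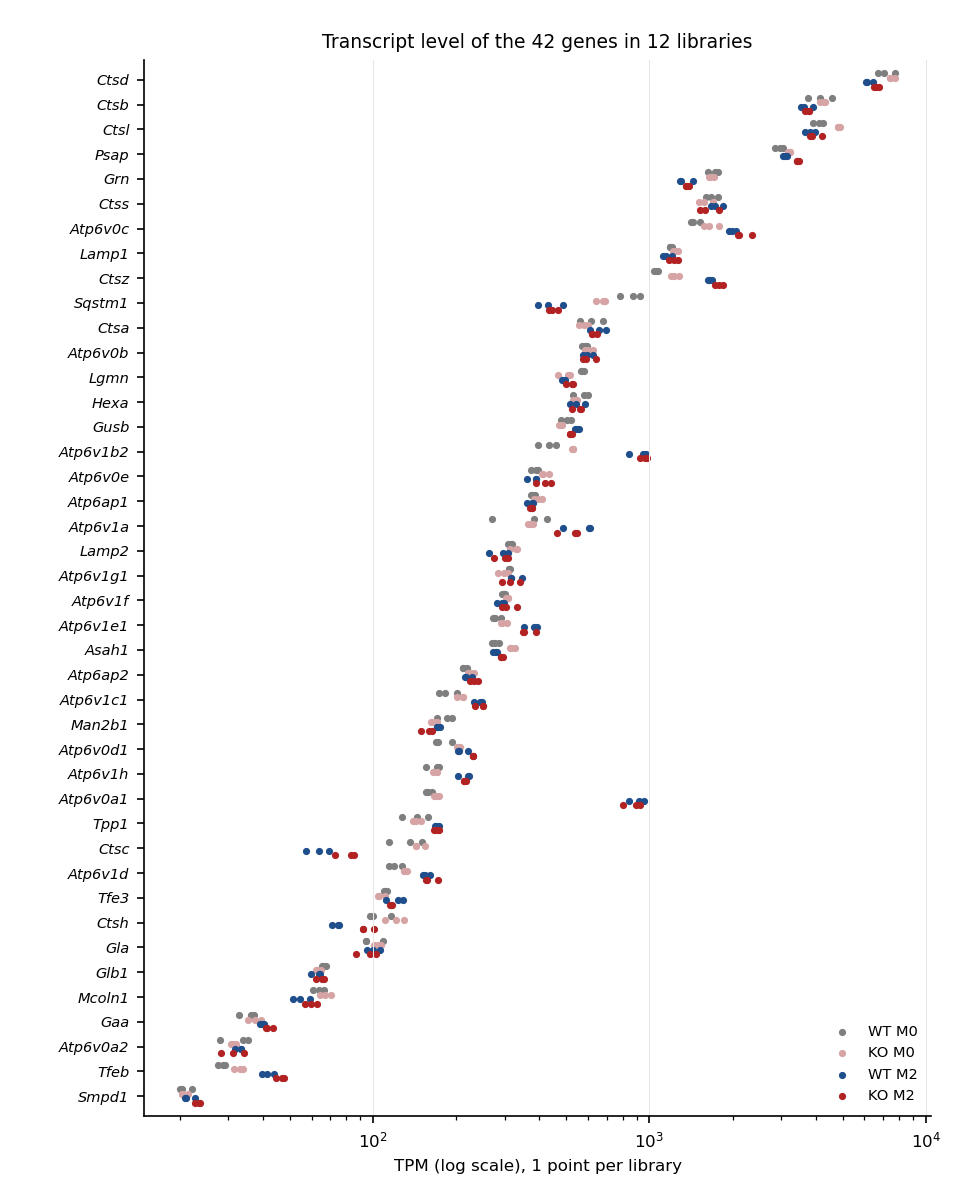
Level of each of the 42 genes in TPM (log axis) in all 12 libraries, ordered by the WT M0 mean, with 1 point per library and 1 colour per group. Ctsd leads at 6076 to 7766 TPM, while Smpd1 sits lowest at 20.0 to 23.7 TPM, and Atp6v0a1 shows the widest gap between M0 and M2 points.

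The first comparison asked how 8 hours of IL-4, which drives macrophages into the M2 state, changed the lysosomal genes. Many genes of the proton pump rose, led by Atp6v0a1. Among the cathepsins, Ctsc and Ctsh fell and Ctsz rose in both genotypes, and Grn and Sqstm1 fell. Of the 42 members, 15 rose and 6 fell in WT, and 19 rose and 5 fell in KO (edgeR quasi-likelihood test, adjusted p under 0.05 over 12846 genes). Over all genes, 24.9% were higher and 25.1% lower with IL-4 in WT, and 26.8% were higher and 26% lower in KO. The members' shares were 35.7% higher and 14.3% lower in WT, and 45.2% higher and 11.9% lower in KO. The median log2 fold change of the members was 0.10 in WT and 0.12 in KO, against -0.008 and 0.014 over all genes. By the threshold, 15 members rose in both genotypes, which were all 15 that rose in WT and 15 of the 19 in KO. Ctsc, Ctsh, Grn and Sqstm1 fell in both. The share of all genes called in both genotypes was not determined.

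Of the 16 V-ATPase genes, 9 rose with IL-4 in each genotype, or 56.2%, where 24.9% of all genes rose in WT and 26.8% in KO (Atp6v0a1, Atp6v0c and Atp6v0d1 of V0, and Atp6v1a, Atp6v1b2, Atp6v1c1, Atp6v1d, Atp6v1e1 and Atp6v1h of V1). With edgeR 0 fell, also at an unadjusted p under 0.05, and with DESeq2 0 fell. The median log2 fold change of the 16 was 0.37 in WT and 0.29 in KO. All 16 values were above 0 with the TMM scaling of the counts, but in limma on TPM those of Atp6v0a2, Atp6v0b, Atp6v0e, Atp6v1f and Atp6ap1, which were not called, lay below 0 in at least 1 genotype. The summed level of the 6 V0 genes was 2797 ± 63.3 TPM in WT M0 and 4120 ± 89.1 TPM in WT M2, and that of the 8 V1 genes was 2152 ± 154 and 3096 ± 200 TPM. In KO the V0 sum was 3091 ± 137 TPM in M0 and 4341 ± 144 TPM in M2, and the V1 sum was 2308 ± 32.6 and 3083 ± 6.49 TPM.

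Atp6v0a1 (chr11:101009452-101063719, GRCm38, plus strand) encodes a1, one of the exchangeable a subunits that carry protons through V0 and direct the pump to a membrane. In WT it was at 156, 158 and 164 TPM in M0 and at 956, 915 and 841 TPM in M2. In KO it was at 167, 173 and 170 TPM in M0 and at 806, 895 and 923 TPM in M2. Every M2 library lay far above every M0 library. The log2 fold change was 2.63 ± 0.06 (SE) in WT, or 6.17-fold (adjusted p = 7.53e-12), and 2.51 ± 0.06 in KO, or 5.69-fold (adjusted p = 9.67e-12).

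Atp6v1b2 (chr8:69088646-69113711, plus strand) encodes the B2 subunit of the ATP-hydrolysing head. It was at 460, 433 and 397 TPM in WT M0 and at 952, 974 and 842 TPM in WT M2. KO libraries had 530, 528 and 527 TPM in M0 and 928, 980 and 966 TPM in M2. The M0 and M2 libraries were clearly separate in both genotypes, and in M0 all KO libraries lay above all WT libraries. IL-4 raised it 2.23-fold in WT (log2 1.16 ± 0.05, adjusted p = 1.91e-09) and 1.91-fold in KO (log2 0.93 ± 0.05, adjusted p = 1.29e-08).

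Atp6v1a, the catalytic A subunit of the same head, was at 428, 384 and 270.5 TPM in WT M0 and at 612, 607 and 487 TPM in WT M2. It was at 378, 370 and 366 TPM in KO M0 and at 465, 549 and 538 TPM in KO M2. M0 and M2 did not overlap in either genotype, although the third WT library was low in both conditions. The rise was 1.59-fold in WT (log2 0.67 ± 0.08, adjusted p = 1.67e-05) and 1.45-fold in KO (log2 0.54 ± 0.08, adjusted p = 9.3e-05). Libraries of WT M0 and of KO M2 differed by transcript length. The median log2 deviation from the group mean of genes longer than 4000 nt was 0.09, 0.02 and -0.10 in the WT M0 libraries and -0.11, 0.08 and 0.04 in the KO M2 libraries. Its part in the result was not tested.

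Atp6v0c encodes the proteolipid of the rotating membrane ring, and its level exceeded that of every other V-ATPase member. It was at 1438, 1413 and 1527 TPM in WT M0 and at 1987, 1937 and 2061 TPM in WT M2. In KO it was at 1787, 1644 and 1572 TPM in M0 and at 2359, 2109 and 2093 TPM in M2. M2 lay above M0 in both genotypes without overlap, by 1.43-fold in WT (log2 0.51 ± 0.07, adjusted p = 6.47e-05) and 1.38-fold in KO (log2 0.46 ± 0.07, adjusted p = 0.000131). The other 5 subunits that rose did so by a log2 of 0.30 (Atp6v0d1, which joins the ring to the stalk) to 0.49 (Atp6v1e1, of the peripheral stalks) in WT, and by 0.26 to 0.43 in KO. Of the 7 V-ATPase genes that did not pass, Atp6v0a2, Atp6v0b, Atp6v0e, Atp6v1f, Atp6v1g1 and the accessory genes Atp6ap1 and Atp6ap2, the log2 fold changes ran from 0.03 to 0.13 in WT and from 0.00 to 0.17 in KO. With the mouse as a block, Atp6ap2 passed in WT (adjusted p = 0.0393) and KO (0.0232), and Atp6v1g1 in KO (0.0242).

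**Figure D2:**
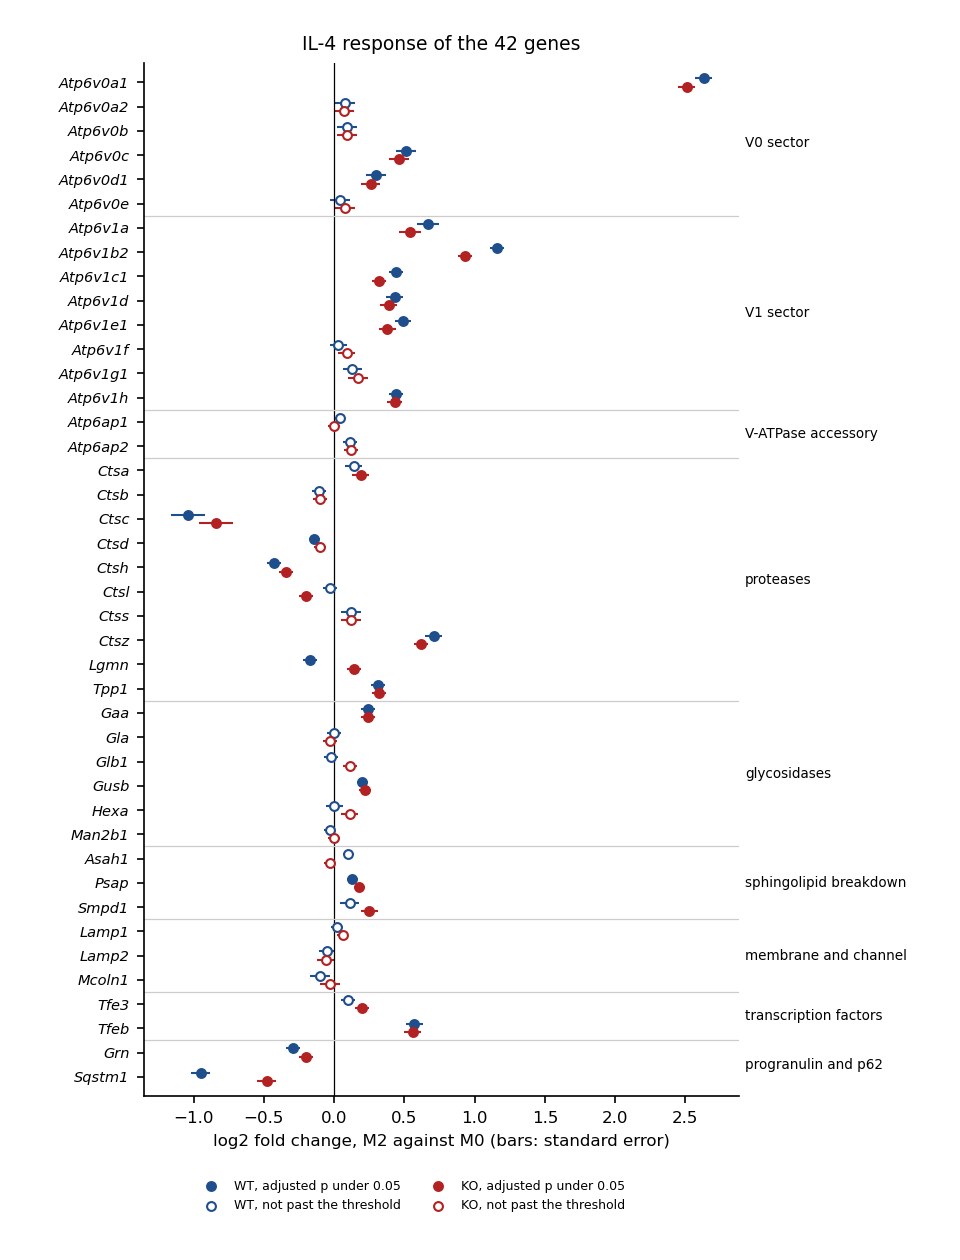
Log2 fold change with IL-4 (M2 against M0) of each of the 42 genes in WT and KO from the edgeR fit, with bars of 1 SE and filled points where the adjusted p was under 0.05. Atp6v0a1 (2.63 in WT, 2.51 in KO) and Atp6v1b2 (1.16, 0.93) lie furthest to the right, and Ctsc (-1.04, -0.84) and Sqstm1 (-0.95, -0.48) furthest to the left.

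Other isoforms of the pump were listed apart from the members. Of 9 isoform genes, 3 had enough counts to be tested. Tcirg1, which encodes the a3 subunit, was at 458, 418 and 387 TPM in WT M0 and at 786, 738 and 748 TPM in WT M2 (log2 0.90, adjusted p = 4.78e-08). KO libraries held 553, 504 and 530 TPM in M0 and 878, 879 and 820 TPM in M2 (log2 0.72, adjusted p = 3.43e-07). The a1 share of the summed a1, a2 and a3 TPM was 26.1% ± 2.18 in WT M0 and 53.3% ± 1.27 in WT M2, and 23.3% ± 1.1 and 49.5% ± 2.49 in KO. The summed a-subunit level was 612.8 ± 35.1 TPM in WT M0 and 1694 ± 77.6 TPM in WT M2. Atp6v0a4 was listed at 0 TPM in all 12 libraries. The d2 isoform Atp6v0d2 was at 16.1, 10.1 and 6.85 TPM in WT M0 and at 102.5, 97.5 and 79.6 TPM in WT M2, a log2 fold change of 3.14 ± 0.25 (adjusted p = 3.71e-07). Its share of d1 plus d2 was 5.89% ± 2.59 in WT M0 and 30.7% ± 3.73 in WT M2, and 3.97% ± 0.96 and 21.9% ± 3.26 in KO. The third tested isoform, Atp6v1g2, fell, with a log2 fold change of -0.84 in WT and -0.57 in KO.

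**Figure D3:**
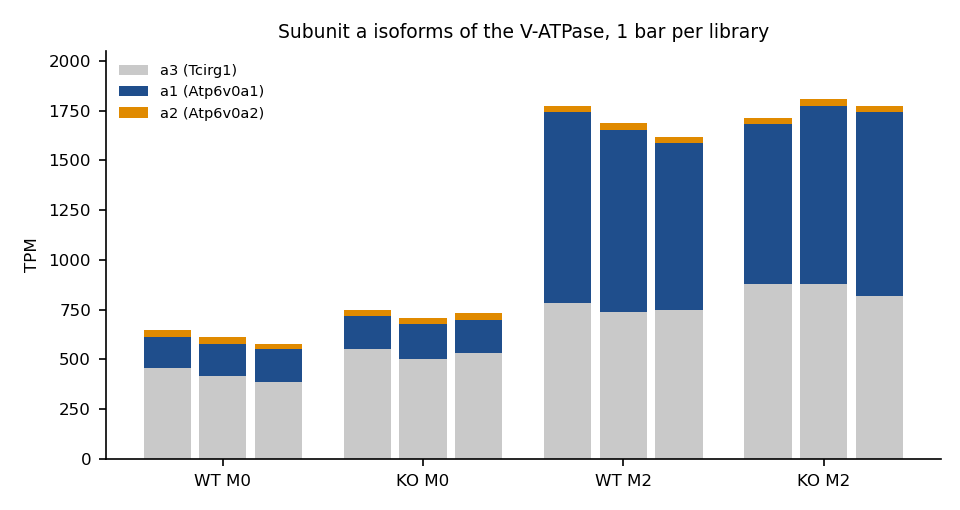
Stacked TPM of the V0 a-subunit genes Tcirg1 (a3), Atp6v0a1 (a1) and Atp6v0a2 (a2), with 1 bar for each of the 12 libraries. The mean sum is 612.8 TPM in WT M0 and 1694 TPM in WT M2, and the a1 part is 26.1% of the bar in WT M0 and 53.3% in WT M2.

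Among the 10 proteases, 2 rose and 4 fell with IL-4 in WT (20% and 40%, where 24.9% and 25.1% of all genes did), and 4 rose and 3 fell in KO (40% and 30%, where 26.8% and 26% of all genes did). Their summed level was 19720 ± 1220 TPM in WT M0 and 18580 ± 710 TPM in WT M2, and 20950 ± 319 TPM and 19240 ± 253 TPM in KO. The 3 most abundant cathepsins, Ctsd, Ctsb and Ctsl, made up 44.96% ± 1.07 of the members' TPM in WT M0 and 39.6% ± 0.504 in WT M2, and 46.1% ± 0.543 and 39.8% ± 0.340 in KO.

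Ctsz (cathepsin Z, a carboxypeptidase) showed the largest rise of the called proteases. It was at 1044, 1057 and 1075 TPM in WT M0 and at 1689, 1640 and 1633 TPM in WT M2. In KO it was at 1194, 1278 and 1232 TPM in M0 and at 1843, 1784 and 1732 TPM in M2. The 3 libraries of each group lay close together and M2 was above M0 throughout, by 1.63-fold in WT (log2 0.71 ± 0.06, adjusted p = 3.29e-07) and 1.53-fold in KO (log2 0.62 ± 0.05, adjusted p = 9.95e-07). Tpp1 (tripeptidyl peptidase 1) also rose in both, by a log2 of 0.31 in WT and 0.32 in KO.

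Ctsc (chr7:88278085-88310888, plus strand), the dipeptidyl peptidase that activates serine proteases of granules, fell most. It was at 114, 136 and 150.5 TPM in WT M0 and at 57.1, 69.1 and 63.6 TPM in WT M2. The KO levels were 144, 155 and 143 TPM in M0 and 72.7, 85.6 and 83.6 TPM in M2. No M2 library reached the lowest M0 library of its genotype. The log2 fold change was -1.04 ± 0.12 in WT (adjusted p = 1.1e-05), which left 0.485 of the M0 level, and -0.84 ± 0.12 in KO (adjusted p = 5.07e-05).

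Ctsh (chr9:90054152-90076089, plus strand), an aminopeptidase of the cysteine cathepsins, was at 116, 97.7 and 99.8 TPM in WT M0 and at 75.2, 70.9 and 75.0 TPM in WT M2. It was at 111, 121 and 129 TPM in KO M0 and at 92.3, 92.3 and 101 TPM in KO M2. M2 lay below M0 in each genotype without overlap. The log2 fold change was -0.43 ± 0.05 in WT (adjusted p = 2.85e-05) and -0.34 ± 0.05 in KO (adjusted p = 0.000134).

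Smaller changes were seen in the abundant aspartic and cysteine proteases. Ctsd (chr7:142375911-142388038, minus strand) was at 7713, 7041 and 6724 TPM in WT M0 and at 6461, 6130 and 6076 TPM in WT M2. In KO it was at 7438, 7436 and 7766 TPM in M0 and at 6515, 6609 and 6751 TPM in M2. M2 was lower than M0 in both genotypes without overlap, with a log2 fold change of -0.14 ± 0.04 in WT (adjusted p = 0.0145) and -0.10 in KO (adjusted p = 0.0636). In WT the adjusted p was 0.0503 to 0.0534 without the first WT M0 or the second WT M2 library and 0.0705 with only the 6 libraries compared. In KO it passed in 6 of the 9 alternatives other than leaving out a library, among them the mouse as a block (adjusted p = 0.0297), and the responses of the genotypes differed by a log2 of 0.04 (adjusted p = 0.775). Ctsl passed in KO (log2 -0.20 ± 0.05, adjusted p = 0.00779) and had a log2 fold change of -0.03 in WT (adjusted p = 0.63). The difference of these 2 Ctsl responses did not pass (log2 -0.17, adjusted p = 0.289). Ctsa, the protective protein of lysosomal beta-galactosidase and neuraminidase, rose in KO (log2 0.19, adjusted p = 0.0244), but not without the second KO M0 or the first KO M2 library (adjusted p = 0.0935 to 0.0961) or in the limma fits on TPM (0.168). In WT its log2 fold change was 0.14 (adjusted p = 0.0893), and 0.00969 was its adjusted p with the mouse as a block. The responses of Ctsa differed by a log2 of 0.05 (adjusted p = 0.824). Ctsb and Ctss passed in neither genotype, and with the block their adjusted p was 0.0133 and 0.0384 in WT and 0.0147 and 0.0464 in KO. Ctsb was also called lower in KO by both limma fits on TPM and with only the 6 libraries (adjusted p = 0.0184 to 0.0351), and in WT by limma on log2(TPM + 0.1) (0.0487).

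Of the 6 glycosidases 2 rose with IL-4 in each genotype (33.3%), and of the 3 genes of sphingolipid breakdown 1 rose in WT (33.3%) and 2 in KO (66.7%), where 24.9% of all genes rose in WT and 26.8% in KO. Gusb (beta-glucuronidase) rose by a log2 of 0.20 in WT and 0.22 in KO, and Gaa by 0.24 in both. Hexa, Glb1, Gla and Man2b1 were not called with IL-4 in either genotype, and with the mouse as a block Glb1 passed in KO (adjusted p = 0.0381). Smpd1 rose in KO (log2 0.25, adjusted p = 0.00515), from 20.4, 21.5 and 20.4 TPM in M0 to 22.8, 23.7 and 23.5 TPM in M2. In WT it was at 20.4, 20.0 and 22.2 TPM in M0 and at 21.0, 21.1 and 22.7 TPM in M2 (log2 0.11, adjusted p = 0.19, and 0.016 without the third WT M0 library). The difference of these 2 Smpd1 responses did not pass (log2 0.14, adjusted p = 0.463). Psap rose by a log2 of 0.13 in WT (adjusted p = 0.0201) and 0.18 in KO (adjusted p = 0.00239). The WT call for Psap was lost without the first WT M0 or the third WT M2 library (adjusted p = 0.0546 to 0.0571), without a filter, in both limma fits and with only the 6 libraries (0.085 to 0.172), and the TPM of M0 and M2 overlapped. The KO call was lost in limma on log2(TPM + 1) (adjusted p = 0.0534). Asah1 (acid ceramidase) passed in neither genotype. Its log2 fold change of 0.10 in WT passed with DESeq2 (adjusted p = 0.0238) and with the block (0.0454) and changed sign in 2 alternatives, and in KO both limma fits on TPM called it lower (log2 -0.12, adjusted p = 0.0134 to 0.0141). Of the membrane genes Lamp1, Lamp2 and Mcoln1, 0 passed in any comparison with edgeR or DESeq2, and 1 had an unadjusted p under 0.05, in KO against WT in M2. Mcoln1, the calcium channel TRPML1, was at 66.5, 63.9 and 60.7 TPM in WT M0, at 59.4, 54.5 and 51.4 TPM in WT M2, at 70.8, 64.5 and 67.1 TPM in KO M0 and at 63.0, 59.9 and 57.0 TPM in KO M2. Its log2 fold change with IL-4 was -0.10 in WT (adjusted p = 0.253) and -0.03 in KO (adjusted p = 0.719). The TPM groups did not overlap in either genotype, and limma on log2(TPM + 1) or log2(TPM + 0.1) called it lower in WT (adjusted p = 0.0191 to 0.0193) and in KO (adjusted p = 0.0472 to 0.0477).

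Grn encodes progranulin, a secreted and lysosomal glycoprotein that is cleaved to granulins. It was at 1778, 1730 and 1636 TPM in WT M0 and at 1437, 1295 and 1300 TPM in WT M2. Levels in KO were 1707, 1644 and 1658 TPM in M0 and 1392, 1359 and 1359 TPM in M2. M2 lay below M0 in both, by a log2 of -0.29 ± 0.05 in WT (adjusted p = 0.000339) and -0.20 ± 0.05 in KO (adjusted p = 0.00415). The genotypes overlapped in M0 (log2 -0.02, adjusted p = 0.879), and the difference of log2 0.07 in M2 was not called.

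Tfeb (chr17:47737030-47792419, plus strand) was at 29.3, 28.6 and 27.5 TPM in WT M0 and at 41.4, 39.8 and 43.7 TPM in WT M2. KO mice had 33.8, 31.5 and 33.0 TPM in M0 and 47.5, 47.0 and 44.8 TPM in M2. All M2 libraries lay above all M0 libraries, by 1.48-fold in WT (log2 0.57 ± 0.06, adjusted p = 4.56e-06) and 1.47-fold in KO (log2 0.56 ± 0.06, adjusted p = 3.24e-06). Its relative Tfe3 was at 112, 112 and 109 TPM in WT M0 and at 128, 123 and 112 TPM in WT M2. It was at 104, 111 and 105 TPM in KO M0 and at 116, 115 and 117 TPM in KO M2. The KO groups did not overlap (log2 0.20 ± 0.05, adjusted p = 0.00483), and in WT the lowest M2 library was at the level of M0 (log2 0.10, adjusted p = 0.122). The KO call for Tfe3 was lost in limma on log2(TPM + 1) and log2(TPM + 0.1), and the difference between the genotypes in its response did not pass (log2 0.10, adjusted p = 0.51).

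The elements these factors bind were searched in RefSeq promoters (GRCm38.p6, 250 bases before to 50 bases after a start site), which were matched for 34 of the 42 genes. No promoter was matched for Asah1, Atp6v0a2, Atp6v1b2, Atp6v1c1, Atp6v1g1, Atp6v1h, Ctsb and Ctsh, some of which responded to IL-4. CACGTG, which reads the same on both strands, was found in the promoters of 13 of the 34 (38.2%) and of 8.09% of all 27025 genes with a promoter. Of these 13, 3 rose and 2 fell with IL-4 in WT. Of the 21 without it, 9 rose and 3 fell. Over all genes 24.9% rose and 25.1% fell in WT, and shares among all genes with or without the element were not determined. The longer TCACGTGA, which contains CACGTG, was found in 7 of the 34 (20.6%) and in 1.12% of all genes. Of those 7 genes 2 rose, 1 fell and 4 were not called with IL-4 in WT. No CACGTG was found in the windows of Atp6v0a1 or Sqstm1. The Atp6v0a1 window (chr11:101010148-101010447) lay within the gene, so that the 5′ end of the gene at 101009452 was not searched. A match is a description of the sequence and not of binding. After the IL-4 values had been seen, TTC and GAA with 4 bases between them, the spacing recognised by the IL-4-activated factor STAT6, was also searched, again the same on both strands. It was found for 8.01% of all genes and for 1 member, Tfeb, at a start site within the gene. All the windows with TCACGTGA are shown because they carry the element that TFEB and TFE3 are known for, followed by the Tfeb window. Capitals mark the element, each window has 30 bases and runs 5′ to 3′ on the strand of the gene. Start sites are those of RefSeq and need not be at the 5′ end of the gene in GENCODE. The promoter windows searched for Atp6v0e (chr17:26676146-26676445), Atp6v1a (chr16:44139210-44139509) and Ctsa (chr2:164833523-164833822) lay within the genes. The other Ctsa window (chr2:164832622-164832921), at the 5′ end of the gene, held no CACGTG.
Atp6v0d1, chr8:105566050-105566079, minus strand, 4 bases before the start site: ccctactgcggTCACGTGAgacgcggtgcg
Atp6v0e, chr17:26676387-26676416, plus strand, base 3 after the start site: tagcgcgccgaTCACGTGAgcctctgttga
Atp6v1a, chr16:44139373-44139402, minus strand, 132 bases before the start site: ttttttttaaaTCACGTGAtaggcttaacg
Ctsa, chr2:164833749-164833778, plus strand, 13 bases before the start site: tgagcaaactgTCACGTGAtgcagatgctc
Ctsa, chr2:164833766-164833795, plus strand, base 5 after the start site: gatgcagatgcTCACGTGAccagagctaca
Ctsd, chr7:142387908-142387937, minus strand, 99 bases before the start site: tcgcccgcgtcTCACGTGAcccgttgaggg
Gla, chrX:134601215-134601244, minus strand, 228 bases before the start site: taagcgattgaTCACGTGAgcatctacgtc
Gla, chrX:134601182-134601211, minus strand, 195 bases before the start site: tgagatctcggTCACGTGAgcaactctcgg
Mcoln1, chr8:3500462-3500491, plus strand, 46 bases before the start site: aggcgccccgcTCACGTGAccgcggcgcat
Tfeb, chr17:47785500-47785529, plus strand, the TTC and GAA element 234 bases before the start site: taggcttttgTTCCGATGAActgggagcta

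The second comparison asked how the absence of IGF2BP2 bore on the same genes. In M0, 5 members were higher and 3 lower in KO than in WT, or 11.9% and 7.14% of the 42, where 5.5% of all genes were higher and 4.27% lower. In M2, 2 members were higher and 0 lower, or 4.76% and 0%, where 1.21% of all genes were higher and 1.46% lower. The M2 counts over all genes, 156 higher and 188 lower, ran from 9 to 347 and from 16 to 414 when 1 library was left out. At an unadjusted p under 0.05, edgeR gave 9 members higher and 1 lower in M2, where 9.94% and 10.4% of all genes were, and DESeq2 called 1 member lower and 3.1% of all genes. The median log2 fold change of the members was 0.06 in both conditions, against -0.001 over all genes, with 28 of the 42 above 0 in M0 and 32 in M2. Called differences were small, the largest being a log2 of -0.39 for Sqstm1. Only Atp6v1b2 and Sqstm1 in M0 passed in each of the 12 fits that left out 1 library.

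**Figure D4:**
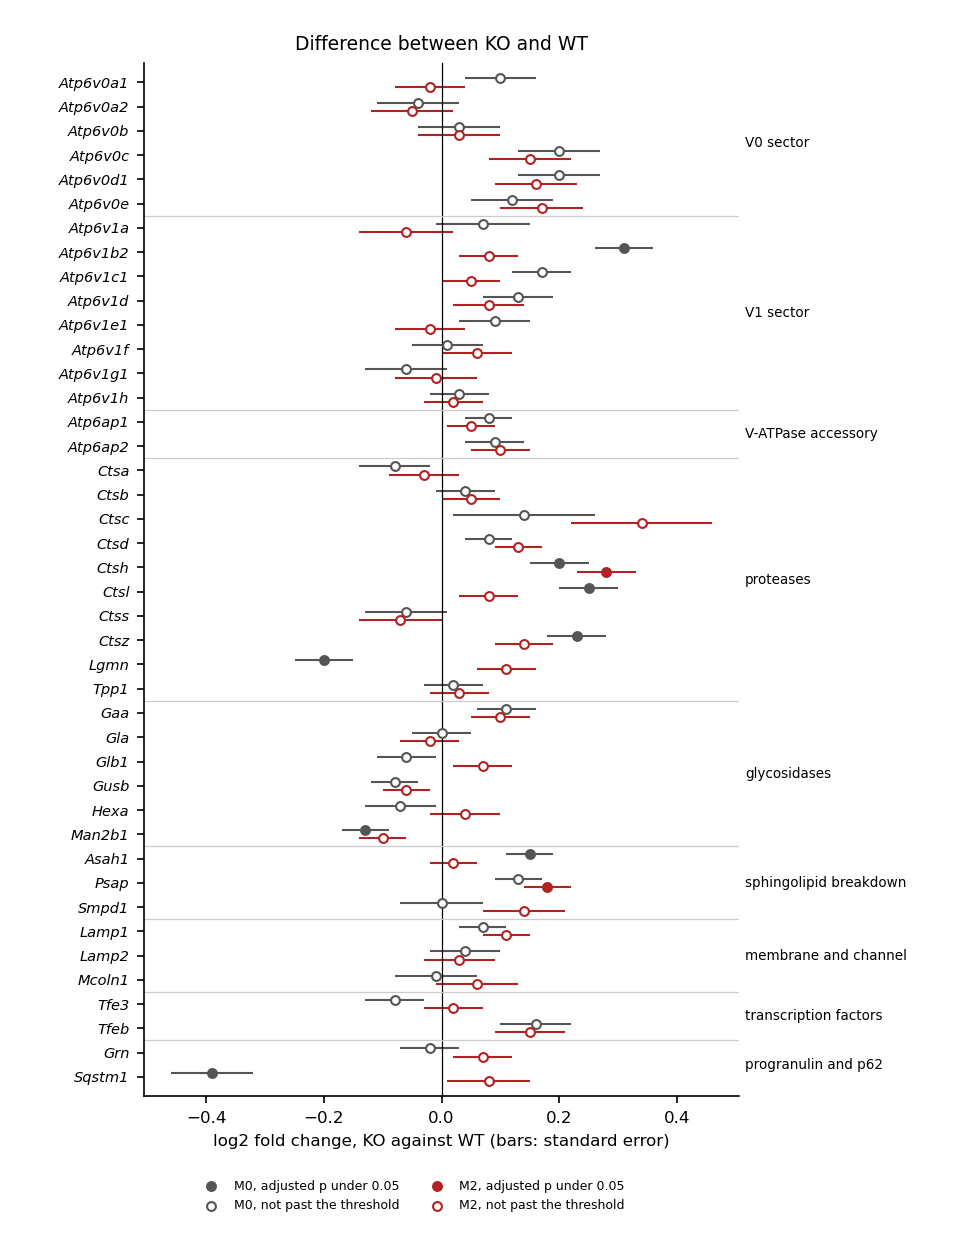
Log2 fold change of KO against WT, shown for M0 and M2 and for each of the 42 members, from the edgeR fit, with bars of 1 SE and filled points where the adjusted p was under 0.05. In M0 Atp6v1b2 (0.31) and Sqstm1 (-0.39) lie furthest out on either side, and in M2 Ctsh (0.28) and Psap (0.18) are the filled points.

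Of the V-ATPase genes, only Atp6v1b2 passed in M0, at 1.24-fold the WT level (log2 0.31 ± 0.05, adjusted p = 0.00368), and 0 passed in M2. In M0 this was 6.25% of the 16, near the 5.5% of all genes that were higher, with 4.27% lower. Over all genes 1.21% were higher and 1.46% lower in M2. In M0 edgeR gave 5 of the 16 higher at an unadjusted p under 0.05, where 13.2% of all genes were, and DESeq2 called 3 higher, where it called 7.29% of all genes. Atp6v0d1, at an adjusted p of 0.0876 with edgeR in M0 (log2 0.20), passed with DESeq2 (0.041), in limma on log2(TPM + 1) (0.0473) and without the third WT M0 library (0.00319). In M2 edgeR gave 2 of them higher and 0 lower at an unadjusted p under 0.05 (9.94% and 10.4% of all genes), and DESeq2 called 0 (2.48% of all genes higher and 3.1% lower). The median over all 16 was a log2 of 0.09 in M0 and 0.05 in M2. Among the isoforms that are no members, Tcirg1 was higher in KO M0 (log2 0.34, adjusted p = 0.00372).

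Sqstm1 (chr11:50199366-50210827, minus strand) encodes p62, which binds ubiquitin-marked cargo and hands it to autophagosomes. It was at 926, 870 and 784 TPM in WT M0 and at 639, 692 and 678 TPM in KO M0. All KO libraries lay below all WT libraries. KO had 0.765 of the WT level (log2 -0.39 ± 0.07, adjusted p = 0.00727). In M2 it was at 489, 430.5 and 395 TPM in WT and at 444, 466 and 433 TPM in KO, so that the genotypes overlapped (log2 0.08, adjusted p = 0.587).

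Among the proteases, Ctsl (chr13:64359337-64370890, minus strand) was at 4264, 4116 and 3904 TPM in WT M0 and at 4798, 4812 and 4879 TPM in KO M0. The groups did not overlap, with KO 1.19-fold higher (log2 0.25 ± 0.05, adjusted p = 0.0158). The call was lost without the second WT M0, the second KO M0 or the third KO M0 library (adjusted p = 0.0591 to 0.067). In M2 it was at 3979, 3827 and 3669 TPM in WT and at 4196, 3824 and 3877 TPM in KO, with overlap.

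Ctsz in M0, with the levels given above, was 1.17-fold higher in KO (log2 0.23 ± 0.05, adjusted p = 0.0211) without overlap. It was lost without the first or second WT M0 or the second or the third KO M0 library (adjusted p = 0.0584 to 0.096). Ctsh was higher in KO both in M0 (log2 0.20 ± 0.05, adjusted p = 0.0354), where the TPM of the groups overlapped, and in M2 (log2 0.28 ± 0.05, adjusted p = 0.0229), where they did not. The M0 call for Ctsh was lost without the second WT M0, the second KO M0, the third KO M0 or the second KO M2 library (adjusted p = 0.0502 to 0.137). The M2 call was lost without the second or the third library of WT M2 or of KO M2 (adjusted p = 0.0504 to 0.111).

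Lgmn (chr12:102394084-102439813, minus strand) encodes legumain, an asparaginyl endopeptidase that processes cathepsins. It was at 568, 579 and 572 TPM in WT M0 and at 509, 468 and 516 TPM in KO M0. All KO libraries were lower (log2 -0.20 ± 0.05, adjusted p = 0.0369). The call held without the first WT M0, the first or the third WT M2, or the first or second KO M2 library, and was lost without any of the other 7 (adjusted p = 0.0557 to 0.163).

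The last 3 called genes differed by still smaller amounts. Man2b1 (lysosomal alpha-mannosidase) was at 194, 185 and 171 TPM in WT M0 and at 171, 166 and 162 TPM in KO M0. KO lay just below WT (log2 -0.13 ± 0.04, adjusted p = 0.0428), a call kept only without the third WT M0, the third WT M2 or the first KO M2 library and lost without any of the other 9 (adjusted p = 0.0569 to 0.154). In M2 it was at 174, 171 and 171 TPM in WT and at 150, 164 and 159 TPM in KO. Asah1 was at 286.5, 278 and 270 TPM in WT M0 and at 326.5, 313 and 315 TPM in KO M0. All KO libraries were higher (log2 0.15 ± 0.04, adjusted p = 0.0388), a call kept without the first WT M0, the first or the third WT M2 or the first KO M2 library and lost without any of the other 8 (adjusted p = 0.0517 to 0.123). Its M2 levels were 271, 279 and 282 TPM in WT and 295, 292 and 290 TPM in KO. Psap (chr10:60277627-60302597, plus strand) was at 3037, 3083 and 3158 TPM in WT M2 and at 3481, 3415 and 3422 TPM in KO M2. KO was 1.13-fold higher in M2 (log2 0.18 ± 0.04, adjusted p = 0.0394), kept only without the first or the third WT M0 library and lost without any of the other 10 (adjusted p = 0.0516 to 0.126). In M0 Psap was at 2967, 3040 and 2854 TPM in WT and at 3227, 3187 and 3238 TPM in KO.

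The third comparison asked whether the response to IL-4 itself differed between the genotypes. Of the members, 2 had a higher log2 fold change in KO than in WT and 0 a lower one, or 4.76% and 0%, where 1.11% of all genes had a higher and 2.13% a lower one. Those shares stood for 143 and 273 of 12846 genes, and with the mouse as a block 359 and 644 genes were called. At an unadjusted p under 0.05, edgeR gave 2 higher and 2 lower (7.81% and 10% of all genes), and DESeq2 called 1 lower (4.45% of all genes). This difference uses the same libraries as the comparisons above.

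Sqstm1 fell with IL-4 in both genotypes, but less in KO. Its log2 fold change was -0.95 ± 0.07 in WT (adjusted p = 3.47e-07) and -0.48 ± 0.07 in KO (adjusted p = 0.000122). The M2 to M0 ratio of TPM was 0.528, 0.495 and 0.504 in the 3 WT mice and 0.695, 0.673 and 0.639 in the 3 KO mice. The ratios did not overlap, and an exact permutation test of 3 against 3 cannot give a p under 0.1. The responses differed by a log2 of 0.46 ± 0.10 (adjusted p = 0.0312). That call was kept without the first or the third WT M0 or the first or the third WT M2 library and lost without any of the other 8 (adjusted p = 0.056 to 0.0973). With the mouse as a block the adjusted p was 0.00527.

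Lgmn fell in WT (log2 -0.17 ± 0.05, adjusted p = 0.0197) and rose in KO (log2 0.14 ± 0.05, adjusted p = 0.0428). Its TPM in M2 was 495, 482 and 485 in WT and 525, 500 and 528 in KO, and in KO it overlapped with M0. The M2 to M0 ratio was 0.871, 0.832 and 0.848 in the WT mice and 1.03, 1.07 and 1.02 in the KO mice, again without overlap. Ratios also lay apart for Atp6v0c, Atp6v0d1, Atp6v1b2, Atp6v1c1, Atp6v1e1, Ctsh, Ctsl, Hexa, Glb1, Asah1, Smpd1 and Grn, whose differences did not pass. The share of all genes with such a separation was not determined. The WT call was lost without the second or the third WT M0 or the second WT M2 library (adjusted p = 0.0563 to 0.0675). The KO call was lost without any of 7 libraries (adjusted p = 0.0516 to 0.177), kept without the first or the third WT M0, the third WT M2, the third KO M0 or the second KO M2 library, and held in 2 of the 9 other alternatives. The difference of the responses was a log2 of 0.31 ± 0.08 (adjusted p = 0.0473), kept without the first WT M0 or the second KO M2 library and lost without any of the other 10 (adjusted p = 0.067 to 0.123). With the mouse as a block the adjusted p was 0.0128.

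Atp6v1b2 rose less in KO in all mice, with M2 to M0 ratios of 2.07, 2.25 and 2.12 in WT and of 1.75, 1.86 and 1.83 in KO. The difference of log2 -0.22 ± 0.07 did not pass (adjusted p = 0.123), and with the mouse as a block the adjusted p was 0.0373.

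**Figure D5:**
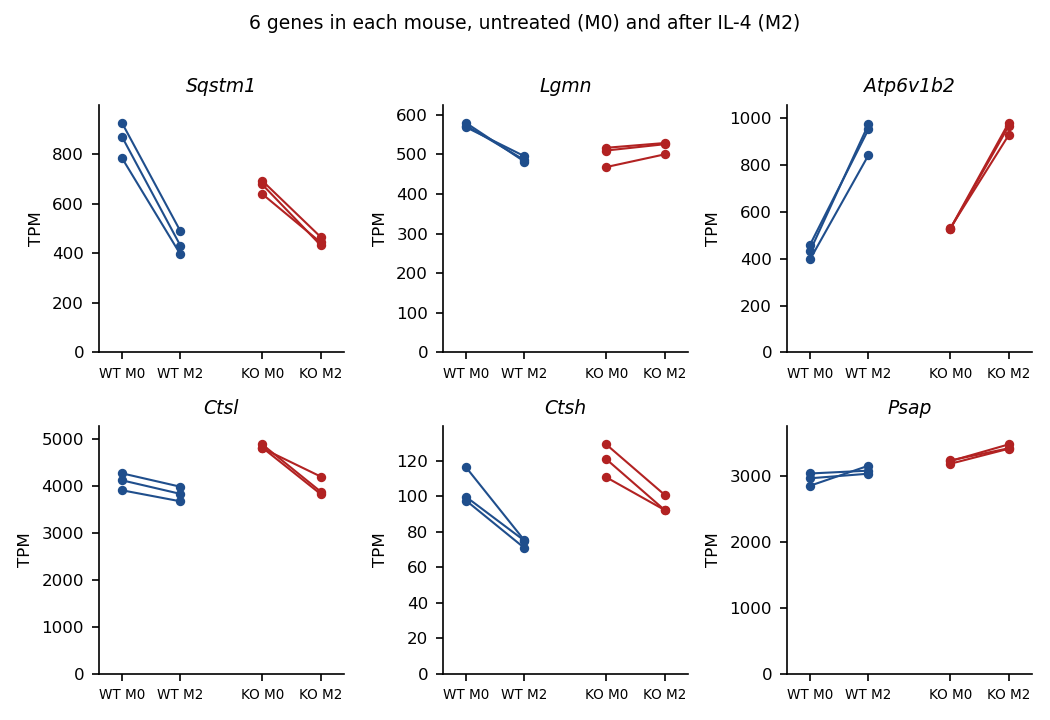
TPM of Sqstm1, Lgmn, Atp6v1b2, Ctsl, Ctsh and Psap in M0 and M2, with 1 line per mouse and 1 colour per genotype, on axes that start at 0. The Sqstm1 lines of the 3 WT mice fall more steeply (ratios of 0.495 to 0.528) than those of the 3 KO mice (0.639 to 0.695), and the Lgmn lines fall in WT (0.832 to 0.871) and not in KO (1.02 to 1.07).

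Lists of other lysosomal genes were set beside the members, 103 genes in all, of which 95 could be tested. With IL-4, 38 of these rose and 20 fell in WT (40% and 21.1%, where 24.9% and 25.1% of all genes did), and 39 rose and 16 fell in KO (41.1% and 16.8%, against 26.8% and 26% of all genes). Between the genotypes, 13 were higher and 1 lower in KO M0 (13.7% and 1.05%, against 5.5% and 4.27%), and 3 passed in KO M2 (3.16%, against 1.21%), all of them higher. The response to IL-4 differed for 3 of them (3.16%), Mitf, Uvrag and Tpcn1, and was lower in KO for each. Over all genes 2.13% had a lower and 1.11% a higher response in KO, so that the share was near that of all genes.

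Of 32 tested hydrolases outside the members, 11 rose and 9 fell in WT (34.4% and 28.1%, against 24.9% and 25.1% of all genes) and 10 rose and 5 fell in KO (31.2% and 15.6%, against 26.8% and 26%). The phospholipase gene Pla2g15 rose (log2 1.52 in WT, 1.5 in KO), and Ppt2 (-0.50, -0.43) fell in both. In M0, 4 of them were higher in KO (12.5%, against 5.5% of all genes), led by the sialidase gene Neu1 (log2 0.30), whose call was lost without the second WT M0, the second KO M0 or the third KO M0 library (adjusted p = 0.0629 to 0.0745). Of 18 genes of membrane proteins and transporters, 10 rose and 3 fell in WT (55.6% and 16.7%, against 24.9% and 25.1% of all genes) and 12 rose and 3 fell in KO (66.7% and 16.7%, against 26.8% and 26%). The amino acid transporter gene Slc38a9 rose (log2 1.63, 1.61), and Slc11a1, which encodes the metal transporter NRAMP1, fell (log2 -0.75 in both). Slc11a1 was also higher in KO than in WT in M0 (log2 0.29, adjusted p = 0.0112), though not without the second WT M0 or the second KO M0 library (adjusted p = 0.053 to 0.0574). Tpcn1, an endolysosomal channel gene, fell more in KO (log2 -0.64) than in WT (-0.28). That difference (log2 -0.35, adjusted p = 0.046) was kept without the first WT M0 or the first WT M2 library and lost without any of the other 10 (adjusted p = 0.0532 to 0.106). Of 7 sorting genes, 2 rose and 2 fell in WT (28.6% each, near the 24.9% and 25.1% of all genes) and 2 rose and 4 fell in KO (28.6% and 57.1%, against 26.8% and 26%). Igf2r, a mannose 6-phosphate receptor gene, was among those that fell in KO (log2 -0.64). Of 3 tested cystatins, which inhibit cysteine cathepsins, Cst7 rose in both genotypes (log2 2.65, 2.56) and Cst3 in KO (0.29). These were 33.3% of the 3 in WT and 66.7% in KO, against 24.9% and 26.8% of all genes.

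Of 16 genes that control TFEB and its relatives, 7 rose and 3 fell in WT (43.8% and 18.8%, against 24.9% and 25.1% of all genes) and 6 rose and 2 fell in KO (37.5% and 12.5%, against 26.8% and 26%). The relative Tfec rose by a log2 of 1.15 in WT and 1.5 in KO, and Rragd, a Rag GTPase gene, by 1.24 and 1.22. Mitf, a further relative, was at 31.2, 30.5 and 27.1 TPM in WT M0 and at 55.2, 54.0 and 44.6 TPM in WT M2. In KO it was at 39.3, 37.3 and 32.2 TPM in M0 and at 41.4, 43.6 and 43.2 TPM in M2. Every KO mouse lay above the WT mice in M0 and below them in M2. Its response was lower in KO (log2 -0.44 ± 0.10, adjusted p = 0.0306), a call kept without the first WT M0, the third WT M2 or the first KO M2 library and lost without any of the other 9 (adjusted p = 0.051 to 0.0954). Of 16 autophagy genes, 5 rose and 2 fell in WT (31.2% and 12.5%, against 24.9% and 25.1% of all genes) and 5 rose and 1 fell in KO (31.2% and 6.25%, against 26.8% and 26%). Gabarapl1 rose (log2 0.57, 0.67) and Wipi1 fell (-0.69, -0.42). In M0, 3 autophagy genes were higher in KO (18.8%, against 5.5% of all genes), led by Uvrag (log2 0.46), and the autophagy receptor gene Optn was lower (-0.61). The response of Uvrag was lower in KO (log2 -0.45, adjusted p = 0.02), but not without the second WT M0, the second WT M2, or the first or second KO M0 library (adjusted p = 0.0528 to 0.0616).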

How the data were processed

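RNA from 12 BMM libraries (poly(A) selected, directional, NextSeq 500) was sequenced. Per the labels and the methods, the authors checked reads with FastQC 0.11.2 and aligned them to GRCm38 with Grape-nf. The quantifier and the annotation release are not given in the sources used here. The authors deposited 1 table per library with expected counts (estimated reads per gene, with reads that fit several genes divided among them), TPM, gene lengths and the posterior SD of each count. Their DESeq2 1.40.2 tables of fold changes and p-values were used only to pair gene IDs with symbols. The posterior SD was at most 0.15% of a member's count.

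Expected counts were rounded. Low counts were removed with filterByExpr, and the remaining 12846 genes entered 1 model of all 12 libraries with a coefficient for each group (edgeR 4.0.16, R 4.3.3, TMM scaling). The biological coefficient of variation was 8.08%. Quasi-likelihood F tests gave the p-values, which were adjusted for all genes tested (Benjamini-Hochberg) and called under 0.05. The SE was the log2 fold change divided by the root of F. TPM was used for levels, with the SD over 3 libraries. TPM is relative to the total of a library, so a few abundant genes move all others.

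M0 and M2 libraries of a mouse deviated together from their group means (r = 0.331, 0.103 and 0.364 in WT, 0.166, 0.16 and 0.209 in KO), so the mouse was a block in an alternative. Other alternatives were DESeq2 1.42.0, RLE size factors, 2 other filters, limma 3.58.1 on log2(TPM + 1) and log2(TPM + 0.1), only the 6 libraries of a comparison, thinning to the smallest library (20011771 rounded counts), and leaving out each library. On simulated counts with 200 genes changed by a log2 of 1, edgeR recovered among 12846 genes 76% (M0) and 79.5% (M2) for the genotypes, 79.5% (WT) and 81% (KO) for IL-4, and 71.5% for the difference of the responses. False calls numbered 6, 6, 8, 3 and 7 in the same order. Smaller changes, such as those called between the genotypes, were not simulated.

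Values in every library were given for members called between genotypes or in the difference, the 6 largest rises and falls with IL-4 in WT, and Tfeb, Tfe3, Mcoln1, Grn and Sqstm1. Smpd1 was added after its values were seen. For other lists at most 2 genes per direction were named, and Mitf, Tpcn1 and Uvrag for their difference. The members and lists were chosen with earlier results of these data known. The 12 libraries are from 6 mice, 3 of each genotype, with an M0 and an M2 library from each. Of the members, 12 overlap another counted gene and 2 do so on the same strand, Glb1 with Tmppe and Ctss with a pseudogene, and their values are less certain. Gene coordinates are from GENCODE M21, and promoters from RefSeq.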

Additional observations from a re-analysis of the deposited data

Results flagged for a closer look

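For 5 of the genes described, WT and KO responded differently to IL-4 by the edgeR test of the difference over 12846 genes with 3 mice per genotype. The response was higher in KO for 4.76% of the 42 members and lower for 3.16% of the 95 other genes tested. Over all genes it was higher for 1.11% and lower for 2.13%, so that such calls were not particular to these genes. For Sqstm1 the log2 fold change was higher in KO by 0.46, with a fall in 6 of 6 mice. For Lgmn it was higher in KO by 0.31, with a fall in 3 of 3 WT mice and TPM ratios above 1 in 3 of 3 KO mice. Outside the members the response was lower in KO for Mitf (-0.44), Uvrag (-0.45) and Tpcn1 (-0.35). Every one of the 5 calls was lost in some of the 12 fits that left out 1 library, as given above.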

How the results depend on the processing

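Of the members that rose in both genotypes with IL-4, all but Psap kept their calls in every alternative, as did the falls of Ctsc, Ctsh, Grn and Sqstm1, and no called value of a member changed sign. For KO against WT in M0, the 5 higher members became 8 with DESeq2, 3 with only the 6 libraries and 3 after thinning, and the 3 lower became 1 without a filter and 1 with only the 6 libraries. In M2 the 2 higher became 1 without a filter, 0 in both limma fits, 0 with only the 6 libraries and 1 after thinning, and DESeq2 called 1 lower, Man2b1. For IL-4 in KO the 5 lower became 9 in both limma fits on TPM, and the median of the members in WT was 0.04 in both. The median of all genes was also lower in these fits, at -0.054 and -0.064 in WT, against -0.008 with edgeR. In KO it was -0.055 and -0.066, against 0.014, with 3555 and 3543 genes called lower, against 3346. For the difference between the responses, the 2 higher became 1 with RLE size factors, 1 without a filter and 1 in each limma fit, and 1 lower was called by DESeq2 and 1 with the replicate block (Atp6v1b2). The cause was not tested. Leaving out 1 library gave 1 to 7 higher and 1 to 3 lower members in M0 (median 0.05 to 0.07), and 0 to 3 higher and 0 to 0 lower in M2 (median 0.02 to 0.09). It gave 15 to 17 higher and 4 to 7 lower for IL-4 in WT (median 0.08 to 0.11), and 17 to 22 higher and 5 to 6 lower in KO (median 0.10 to 0.17). For the difference it gave 0 to 2 higher and 0 to 1 lower (median -0.01 to 0.03). With the mouse as a block, 19 members were higher and 7 lower with IL-4 in WT and 23 and 7 in KO, and beside the calls named above it changed no other call. Equally numbered libraries of the genotypes did not vary together (r = -0.068 to 0.04). With the number as a block, 6 members were higher and 3 lower in M0 (Atp6v1c1 was gained, adjusted p = 0.0422), and 2 higher and 0 lower in M2. Over single members, 83 of the values without 1 library and 43 of those under other alternatives lost a call, and 24 and 35 gained one. Both limma fits also lost the calls for Ctsh and Man2b1 in M0, for Ctsh and Psap in M2 and for the Sqstm1 difference. Thinned libraries gave 15 higher and 6 lower members with IL-4 in WT and 18 and 5 in KO.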
